A study of Oryza sativa with 15 samples.

Results

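The T4 generation of the transgenic rice line pOsNAR2.1-OsNAR2.1 was compared with its wild type WYJ7 in 3539 differentially methylated regions (DMRs), all the regions that the authors called between the line and WYJ7. These were 3539 of the 11392 regions in the lists of the study's WGBS lines against WYJ7. Whole-genome bisulfite sequencing (WGBS) converts unmethylated cytosines and leaves methylated ones, so the level of a region is the percentage of methylation over its cytosines. DNA came from shoots of 10-day-old seedlings, with 3 libraries of pOsNAR2.1-OsNAR2.1 and 3 of WYJ7. pOsNAR2.1-OsNAR2.1 was homozygous for an insertion of OsNAR2.1 behind its own promoter and had passed callus induction, shoot induction and hygromycin selection before selfing. WYJ7 is a japonica cultivar that went through none of these steps. The transgenic plants came from a single transformation event, so the event, the culture history and the transgene cannot be told apart. The labels do not say that the libraries of a group came from separate plants, and the spread between them may be technical.

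In rice, DNA methylation in the symmetric CG context is copied after replication by the maintenance methyltransferase MET1. Methylation in the other contexts depends on chromomethylases and on the RNA-directed pathway. Dense methylation is known from transposons and repeats, and in promoters it often accompanies silencing, while methylation in CG context within gene bodies is also found in expressed genes. OsNAR2.1 is the partner protein of the high-affinity nitrate transporters of the NRT2 family. The list gives gene IDs without names, so no function is given for any gene here, and OsNAR2.1 itself and the insertion site were not analysed here.

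The deposited list carried a level in percent for each of the 6 libraries. A hyper-DMR is a region whose mean over the pOsNAR2.1-OsNAR2.1 libraries was above the WYJ7 mean, and a hypo-DMR one whose mean was below. There were 2721 hyper-DMRs and 788 hypo-DMRs, a hyper-DMR share of 77.5%, and 30 regions were listed at 0 in all 6 libraries and have no direction. The groups did not overlap in 2644 of the 3539 regions (74.7%). All 3 libraries of the line were above all 3 WYJ7 libraries in 2045 regions (57.8%) and below them in 599 (16.9%). Since the authors chose the regions on this very contrast, these shares describe the selection, no test of the line against WYJ7 was made, and regions that were not called are outside the list. The read depth of each region is unknown, so no counting error can be given for a level. The paper reports a lower normalized count of methylated cytosines in the line than in WYJ7. The hyper-DMR share therefore describes the listed regions and not the methylation of the whole genome. In the paper, each library of the line had fewer uniquely mapped reads than any WYJ7 library, and the effect of this on the levels was not tested.

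The regions were short. The hyper-DMRs had a median width of 28 bp and the hypo-DMRs of 29 bp, and both had a median of 4 cytosines. Together the listed regions covered 120244 bp. The hyper-DMRs reached at most 227 bp and 32 cytosines, and the hypo-DMRs 314 bp and 50 cytosines. The median difference was 27.05 percentage points in hyper-DMRs (quartiles 19.63 and 36.06) and -28.46 points in hypo-DMRs (quartiles -38.52 and -19.41). The size of the change was therefore similar in both directions, and the number of regions was what differed. In 955 regions (27.0%) the means of the groups lay less than 20 points apart, and in 665 (18.8%) they lay at least 40 points apart. These 665 regions comprised 489 hyper-DMRs and 176 hypo-DMRs.

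The libraries of a group were close to each other. In the 2721 hyper-DMRs the mean level was 60.1, 60.0 and 60.9% in the libraries of pOsNAR2.1-OsNAR2.1, against 31.5, 31.3 and 32.1% in the WYJ7 libraries. In the 788 hypo-DMRs it was 27.0, 27.7 and 27.6% in the libraries of pOsNAR2.1-OsNAR2.1, against 55.0, 58.5 and 57.8% in the WYJ7 libraries. In hypo-DMRs the first WYJ7 library was thus lower than the other WYJ7 libraries, and the WYJ7 libraries spread more than those of the line. The first WYJ7 library was also listed at 0 in 54 hypo-DMRs, against 15 and 19 in the others. How much of its lower mean came from these zeros was not tested. Over the libraries, the hyper-DMRs averaged 60.3% ± 0.48 in the line and 31.6% ± 0.42 in WYJ7 (SD, n = 3 libraries each). The hypo-DMRs averaged 27.4% ± 0.42 in the line and 57.1% ± 1.86 in WYJ7 (SD, n = 3 libraries each). In 2045 of the hyper-DMRs (75.2%) all 3 pOsNAR2.1-OsNAR2.1 libraries were outside the WYJ7 range, and in 496 (18.2%) 2 of them were. In 1269 hyper-DMRs (46.6%) and 416 hypo-DMRs (52.8%) each of the 3 pOsNAR2.1-OsNAR2.1 libraries differed from the mean of WYJ7 by 20 points or more, on the side that the group mean took.

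**Figure D1:**
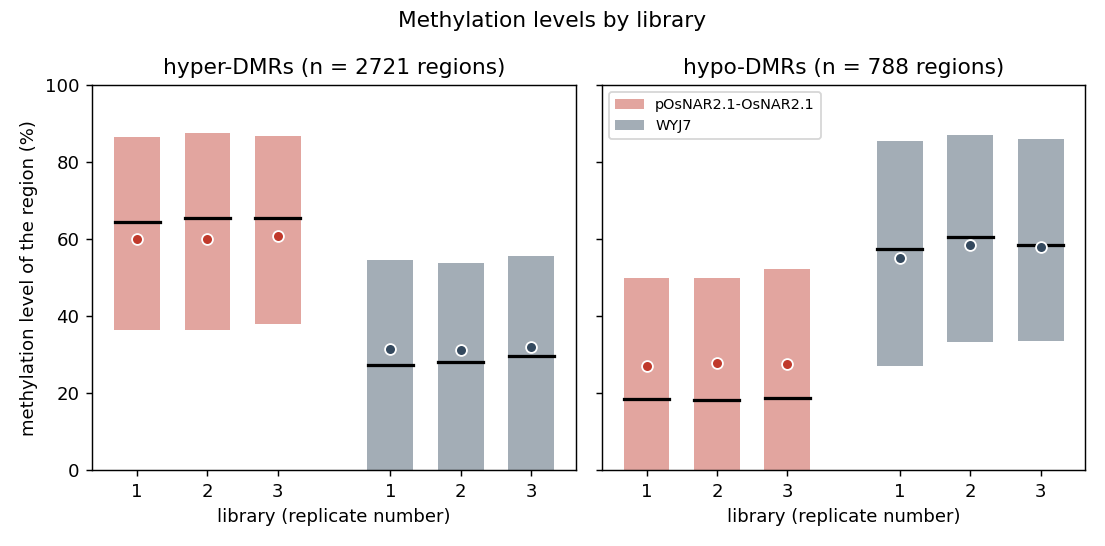
Methylation level in percent (vertical axis) in each library of pOsNAR2.1-OsNAR2.1 (red) and WYJ7 (grey) over the 2721 hyper-DMRs and the 788 hypo-DMRs. Boxes span the quartiles of the regions, black lines are medians and dots are means. The means of the 3 libraries of the line lie at 60.0 to 60.9% in hyper-DMRs and 27.0 to 27.7% in hypo-DMRs, and those of WYJ7 at 31.3 to 32.1% and 55.0 to 58.5%.

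Levels of exactly 0 were frequent. In 1302 regions (36.8%) at least 1 library was listed at 0, and the list does not say whether a 0 stands for reads without methylation or for cytosines without enough reads. The 30 regions listed at 0 in all 6 libraries had been called as different, so their listed zeros do not show the difference that was called. A listed 0 may therefore not always be a measured level. In the hyper-DMRs the libraries of the line were at 0 in 68 to 142 regions and the WYJ7 libraries in 714 to 725. In the hypo-DMRs the libraries of the line were at 0 in 292 to 300 regions and the WYJ7 libraries in 15 to 54. All WYJ7 libraries were at 0 and all pOsNAR2.1-OsNAR2.1 libraries above 0 in 321 regions, and the opposite held in 170. Without the regions that had a 0, 2237 regions were left, with 1808 hyper-DMRs and 429 hypo-DMRs, a hyper-DMR share of 80.8%. The groups did not overlap in 79.6% of these 2237 regions, against 66.3% of the regions with a 0.

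The regions were placed by the level that they had in WYJ7. By mean WYJ7 level, 1223 regions were under 20%, 699 at 20 to 40%, 750 at 40 to 60%, 579 at 60 to 80% and 288 at 80% or more. The hyper-DMR share was 92.7% in the lowest class, 74.1% at 20 to 40%, 80.3% at 40 to 60%, 77.4% at 60 to 80% and 16.3% in the highest class. A region close to 0 has no room to lose methylation and a region close to 100% none to gain it, and the WYJ7 level enters both the class and the direction, so the ends of this order are partly fixed by the scale. Between 20 and 80% both directions were open, and there hyper-DMRs made up 74.1 to 80.3% of each class. Without regions holding a 0 the share was lower in each higher class, with 99.6, 96.0, 89.3, 80.8 and 17.0% in order of the WYJ7 level. Leaving out a 0 also removes losses that ended at 0, so this order is partly made by the filter. At 20 to 40% the filter left 20 of 181 hypo-DMRs and 478 of 518 hyper-DMRs.

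The classes were also read as steps between a low (under 20%), a middle and a high (80% or more) level. The largest class, 897 regions (25.3%), was at a middle level in pOsNAR2.1-OsNAR2.1 and in WYJ7, and 743 of these were hyper-DMRs. In 825 regions (23.3%) the line was high where WYJ7 was at a middle level, and in 816 (23.1%) the line was at a middle level where WYJ7 was low. The opposite steps were less frequent, with 306 regions low in the line and middle in WYJ7 and 208 regions middle in the line and high in WYJ7. Complete switches were rare. Only 16 regions were high in the line and low in WYJ7, and only 5 were low in the line and high in WYJ7.

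Beside the line, the study had CK, the T0 plants regenerated from WYJ7 callus, and SDWT (labelled FP), the T4 descendants of the same transformed plant that had lost the transgene by segregation. Each was called against the same 3 WYJ7 libraries, so the lists are not independent and are set side by side without a test. Over whole lists the hyper-DMR share was 77.5% in pOsNAR2.1-OsNAR2.1, 28.7% in CK and 51.8% in SDWT. At a WYJ7 level of 60 to 80% the hyper-DMR share was 77.4% in the 579 regions of pOsNAR2.1-OsNAR2.1, against 21.2% in the 915 regions of CK and 39.5% in the 471 regions of SDWT. At 40 to 60% it was 80.3% in pOsNAR2.1-OsNAR2.1, 39.6% in CK and 58.5% in SDWT, and at 20 to 40% it was 74.1% in pOsNAR2.1-OsNAR2.1, 40.9% in CK and 45.7% in SDWT. Without the regions holding a 0 the shares of CK and SDWT were higher in these classes and nearer to the line, and at 20 to 40% hyper-DMRs became the larger part in both. Here too the filter removes losses that ended at 0. At 20 to 40% it left 64 of 386 hypo-DMRs in CK and 38 of 296 in SDWT, against 225 of 267 and 208 of 249 hyper-DMRs. At 20 to 40% the share was then 96.0% in pOsNAR2.1-OsNAR2.1, 77.9% in CK and 84.6% in SDWT, at 40 to 60% it was 89.3, 58.6 and 74.8% in this order of lists, and at 60 to 80% it was 80.8, 26.8 and 45.1%. The line had the highest share of the lists in all 5 classes in either set of regions. The lists also differed in where their regions lay. Regions at 80% or more in WYJ7 made up 8.14% of the pOsNAR2.1-OsNAR2.1 list, 38.7% of the CK list and 15.7% of the SDWT list.

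**Figure D2:**
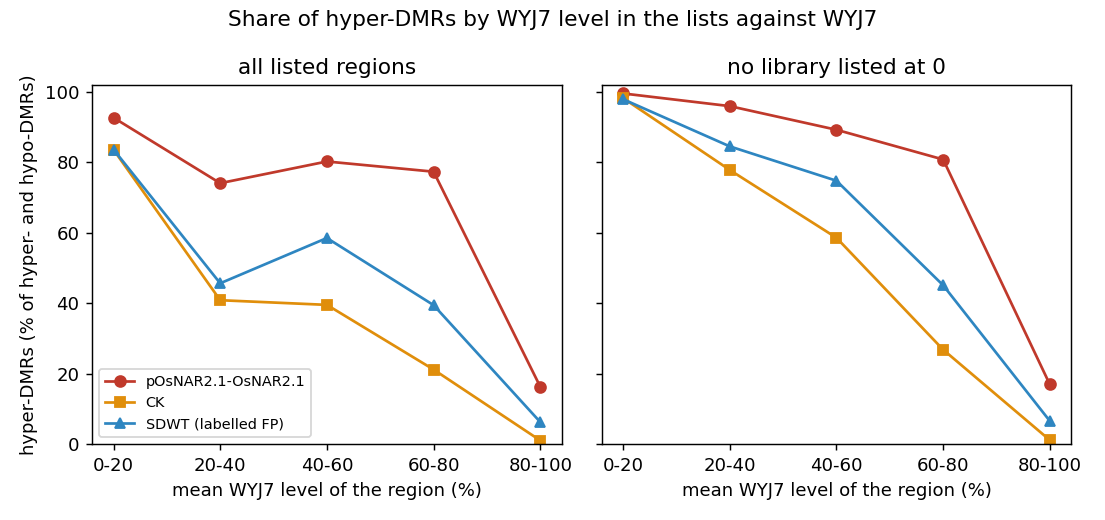
Hyper-DMRs as a percentage of hyper- and hypo-DMRs (vertical axis) by the mean WYJ7 level of the region in percent (horizontal axis), for pOsNAR2.1-OsNAR2.1 (red), CK (orange) and SDWT (blue), over all listed regions and over regions with no library at 0. Points are classes of 20 percentage points. The line is above CK and SDWT in each class. Over all regions its share lies between 74.1 and 80.3% from 20 to 80% and at 16.3% above, and over regions with no 0 it is 96.0, 89.3 and 80.8% from 20 to 80% and 17.0% above.

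The authors' annotation gave each region at most 1 gene and feature. Of the 3539 regions, 1596 (45.1%) were upstream of a gene, in windows of up to 2002 bp, 300 (8.48%) were in introns, 190 (5.37%) were in exons and 1453 (41.1%) had no annotation. Hyper-DMRs were the larger part in each of them over all regions, though among the 11 exon regions with 10 or more cytosines there were 5 hyper-DMRs and 6 hypo-DMRs. The share was 79.0% upstream (1252 hyper-DMRs and 333 hypo-DMRs), 81.1% in introns (241 and 56), 75.0% in exons (141 and 47) and 75.5% in regions without annotation (1087 and 352). The shares of the features lay closer together than those of the chromosomes within a feature, which rest on fewer regions. The 300 intron and 190 exon regions were spread over the 12 chromosomes, so counting error widens these ranges. Over the 12 chromosomes the share ranged from 69.4 to 86.3% upstream, from 60.0 to 96.3% in introns, from 40.0 to 100% in exons and from 68.5 to 78.8% in regions without annotation.

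The levels also differed little between features. In upstream hyper-DMRs the mean was 58.6, 58.8 and 59.7% in the libraries of pOsNAR2.1-OsNAR2.1, against 30.2, 29.6 and 30.8% in the WYJ7 libraries. In exon hyper-DMRs it was 64.5, 62.1 and 62.9% in the libraries of pOsNAR2.1-OsNAR2.1, against 34.4, 34.6 and 36.5% in the WYJ7 libraries. Intron hyper-DMRs averaged 61.7% ± 0.0467 in the line and 32.8% ± 0.832 in WYJ7 (SD, n = 3 libraries each). Hypo-DMRs without annotation were lowest in the line, with 25.4% ± 0.633, against 55.9% ± 2.31 in WYJ7 (SD, n = 3 libraries each). In each feature and direction the libraries of the groups did not overlap, as the choice of the regions sets it.

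Of the upstream regions, 840 were beside genes with OS IDs, the locus IDs of the rice annotation, and 756 beside genes with EPlOSAG IDs, which carry an Ensembl Plants prefix. The hyper-DMR share was 81.5% upstream of OS genes, with a 95% Wilson interval of 78.8 to 84.0%, and 76.2% upstream of EPlOSAG genes, with an interval of 73.0 to 79.1%. These intervals cover counting error only, and neighbouring regions are not independent. Under 20% in WYJ7 the hyper-DMR share was 92.6% upstream, 98.9% in introns, 95.6% in exons and 91.3% in regions without annotation. The scale leaves little room for loss there, so these shares say little about the features. Over the features the share was 71.0 to 76.4% at 20 to 40% and 75.9 to 88.1% at 40 to 60%. At 60 to 80% it was 78.5% upstream, 68.8% in 48 intron regions, 71.0% in 31 exon regions and 78.7% without annotation.

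By chromosome the hyper-DMR share lay between 69.7% on chromosome 12 and 81.5% on chromosome 9, with a median of 77.9% and an SD of 3.54 points over the 12 chromosomes. Chromosome 1 held the most regions (441) and chromosome 11 the fewest (201). The lower share on chromosome 12 went with a single megabase that is described below, and without it the 193 other regions of this chromosome had a share of 76.6%.

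**Figure D3:**
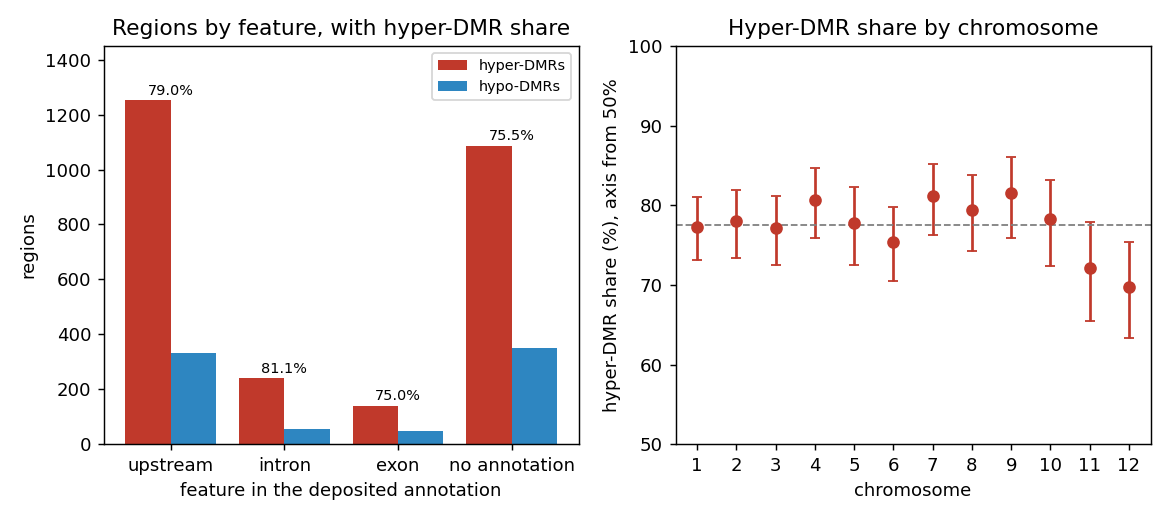
Left, number of hyper-DMRs (red) and hypo-DMRs (blue) by feature, with the hyper-DMR share above the bars. Right, hyper-DMR share in percent by chromosome with 95% Wilson intervals (counting error only), the dashed line marking 77.5% in the whole list and the axis starting at 50%. Shares lie between 75.0 and 81.1% over features and between 69.7 and 81.5% over chromosomes.

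The share of hyper-DMRs was lower in CpH than in CpG context. Regions in CpG context numbered 3448, with 2691 hyper-DMRs and 730 hypo-DMRs (78.7% hyper-DMRs). The 91 regions in CpH context, in which the cytosine is not followed by a guanine, held 30 hyper-DMRs and 58 hypo-DMRs (34.1% hyper-DMRs, 95% Wilson interval 25.0 to 44.5%). In CpH hypo-DMRs the mean level was 12.5, 10.6 and 10.7% in the libraries of pOsNAR2.1-OsNAR2.1, against 37.3, 35.9 and 37.7% in the WYJ7 libraries. In CpH hyper-DMRs it was 38.9, 38.8 and 36.3% in the libraries of pOsNAR2.1-OsNAR2.1, against 12.9, 10.3 and 13.6% in the WYJ7 libraries. CpH regions were upstream in 33 cases, in introns in 5, in exons in 7 and without annotation in 46, and hypo-DMRs were the larger part in each of these, with 22, 3, 4 and 29.

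Of the CpH regions, those with the largest gain lay on chromosome 11 without annotation. From 19323335 to 19323352, over only 3 cytosines, the level was 50.9, 78.3 and 70.8% in the libraries of pOsNAR2.1-OsNAR2.1, against 0, 13.1 and 0% in the WYJ7 libraries. A region of 7 cytosines from 26816059 to 26816136 had 58.0, 69.5 and 55.6% in the libraries of pOsNAR2.1-OsNAR2.1, against 5.38, 0 and 3.16% in the WYJ7 libraries. Neither overlapped between the groups. The third was on the same chromosome from 23256717 to 23256727, with 40.9, 48.1 and 46.2% in the libraries of pOsNAR2.1-OsNAR2.1, against 13.3, 6.94 and 0% in the WYJ7 libraries. The largest loss was also on chromosome 11, from 8941632 to 8941643, where the 3 pOsNAR2.1-OsNAR2.1 libraries were listed at 0 and the WYJ7 libraries at 66.7, 50.8 and 72.0%. Upstream of EPlOSAG00000014282 on chromosome 6 the pOsNAR2.1-OsNAR2.1 libraries had 38.9, 0 and 25.0%, against 77.1, 75.3 and 73.6% in the WYJ7 libraries. On chromosome 9 from 1352888 to 1352894 they had 17.4, 0 and 20.5%, against 44.8, 57.7 and 64.5% in the WYJ7 libraries. The WYJ7 libraries were close together in the region of EPlOSAG00000014282, and those of the line were not. Each of these losses rested on 3 cytosines, and no smallest number was set for the CpH regions named here.

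Regions with more cytosines separated the groups more often. In CpG context the groups did not overlap in 65.1% of 1351 regions with 3 cytosines, 76.7% of 1182 with 4, 84.9% of 821 with 5 to 9 and 95.7% of 94 with 10 or more. The median difference of the hyper-DMRs was 29.10, 27.44, 25.50 and 24.89 points in this order, so that the smaller differences stood in the regions with the cleaner separation. The hyper-DMR share was 76.1, 79.7, 82.7 and 67.0% in these classes. The lower share in the last class went in part with the densest megabase, since without it 72.4% of the 87 remaining CpG regions with 10 or more cytosines were hyper-DMRs.

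The spread between libraries depended on the level. At a level under 20% the median SD of a region was 4.07 points in pOsNAR2.1-OsNAR2.1 (702 regions) and 1.40 points in WYJ7 (1223 regions). At 20 to 40% the line had a median SD of 11.7 points and WYJ7 of 10.9, at 40 to 60% 11.0 and 11.9, at 60 to 80% 9.11 and 10.3, and at 80% or more 3.86 and 3.96. The scale limits the spread near 0 and 100%, and the lowest class includes 271 regions listed at 0 in every pOsNAR2.1-OsNAR2.1 library and 580 listed at 0 in every WYJ7 library, whose SD is 0. Without regions holding a 0 the median SD under 20% was 4.83 points in pOsNAR2.1-OsNAR2.1 (68 regions) and 4.95 points in WYJ7 (238 regions).

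The hyper-DMRs with the largest differences, taken among the 662 that had at least 5 cytosines and groups that did not overlap, gained between 60.20 and 72.52 points. The first lay without annotation on chromosome 10 from 18115807 to 18115817, with 83.1, 75.4 and 83.7% in the libraries of pOsNAR2.1-OsNAR2.1, against 13.7, 10.9 and 0% in the WYJ7 libraries. In an exon of OS03G0806300 on chromosome 3, from 33681078 to 33681140, the pOsNAR2.1-OsNAR2.1 libraries were almost fully methylated with 98.1, 98.3 and 99.2%, against 27.3, 18.8 and 52.3% in the WYJ7 libraries. The spread there was on the side of WYJ7, with an SD of 17.4 points, against 0.571 points in the line (n = 3 libraries each). Upstream of OS07G0517700 on chromosome 7, from 19964825 to 19964847, the level was 67.4, 76.6 and 75.5% in the libraries of pOsNAR2.1-OsNAR2.1, against 7.00, 4.17 and 12.5% in the WYJ7 libraries. Upstream of OS01G0283600 on chromosome 1, from 10144155 to 10144180, it was 62.0, 69.2 and 57.8% in the libraries of pOsNAR2.1-OsNAR2.1, against 0, 4.49 and 0% in the WYJ7 libraries. No WYJ7 library was above 12.5% in these upstream regions, and no library of the line was under 57.8%.

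A pair of the 10 largest hyper-DMRs lay 3031 bp apart on chromosome 10. Upstream of OS10G0379233, from 12180308 to 12180329, the 8 cytosines had a level of 87.8, 88.5 and 79.4% in the libraries of pOsNAR2.1-OsNAR2.1, against 37.6, 26.3 and 10.5% in the WYJ7 libraries. Upstream of OS10G0379100, from 12183361 to 12183370, it was 69.7, 73.5 and 86.5% in the libraries of pOsNAR2.1-OsNAR2.1, against 20.9, 28.2 and 0% in the WYJ7 libraries. The WYJ7 libraries were uneven in both, and the third was the lowest in both. Of the 10 largest hyper-DMRs 5 were upstream of a gene and 4 had no annotation.

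The largest losses, among the 171 hypo-DMRs chosen in the same way, were between -75.69 and -53.27 points. The first was upstream of EPlOSAG00000027119 on chromosome 5 from 3641697 to 3641729, with 0, 14.1 and 9.38% in the libraries of pOsNAR2.1-OsNAR2.1, against 96.3, 81.7 and 72.6% in the WYJ7 libraries. Without annotation on chromosome 1, from 39153322 to 39153412, the level was 19.7, 13.1 and 12.2% in the libraries of pOsNAR2.1-OsNAR2.1, against 79.4, 78.0 and 79.5% in the WYJ7 libraries, and the libraries of each group agreed closely. Upstream of OS05G0273500 on chromosome 5, from 11087050 to 11087074, it was 0, 15.0 and 10.9% in the libraries of pOsNAR2.1-OsNAR2.1, against 62.6, 61.8 and 62.2% in the WYJ7 libraries. Of the 10 largest hypo-DMRs 3 were upstream of a gene and 7 had no annotation. The spread was on the side of the line in some of them, such as the region on chromosome 12 from 17840533 to 17840593, with 34.8, 12.7 and 60.5% in the libraries of pOsNAR2.1-OsNAR2.1, against 88.4, 90.9 and 89.4% in the WYJ7 libraries.

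**Figure D4:**
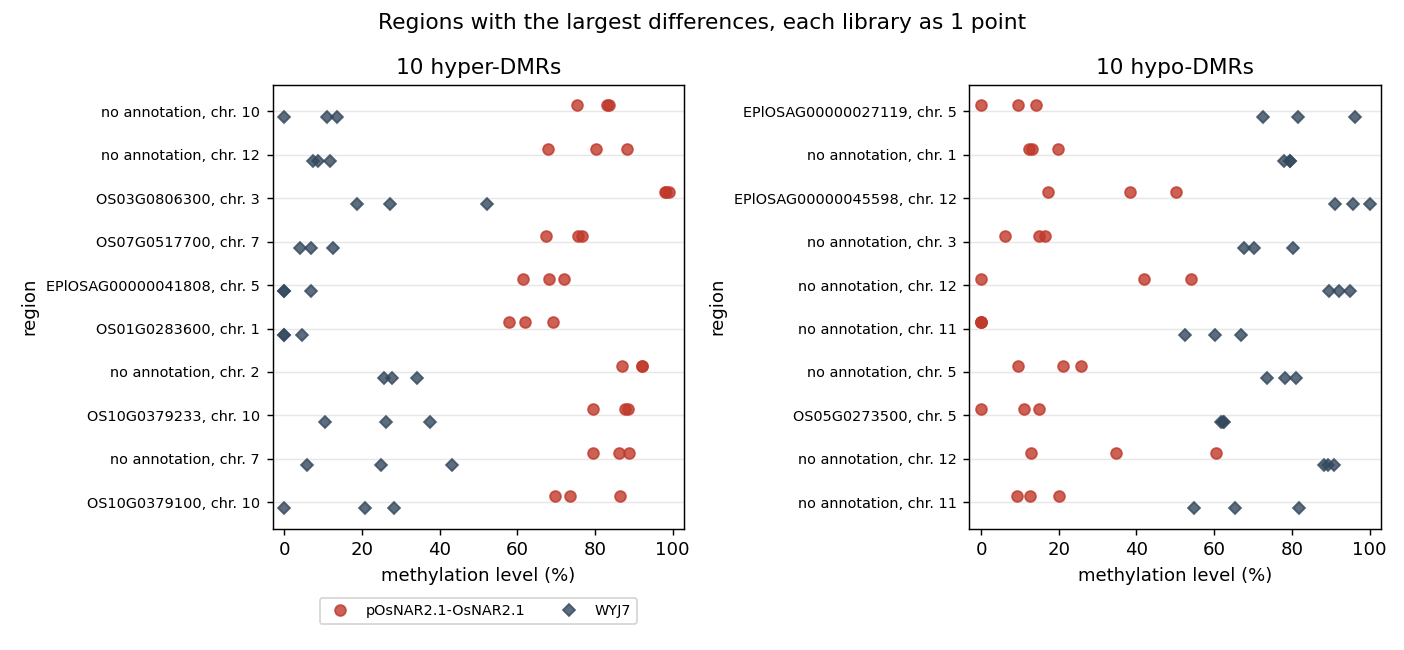
Methylation level in percent (horizontal axis) of the 10 hyper-DMRs and the 10 hypo-DMRs with the largest differences among regions with at least 5 cytosines and groups that do not overlap. Each point is 1 library, red circles for pOsNAR2.1-OsNAR2.1 and dark diamonds for WYJ7, and each row is 1 region named by its gene ID or lack of annotation and its chromosome. The smallest gap between the nearest libraries of the groups is 36.4 points in the hyper-DMRs and 27.9 points in the hypo-DMRs.

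Of these 20 regions 2 (10%) were in the CK list and 4 (20%) in the SDWT list at the same coordinates, against 10.7% and 7.80% of all regions of the line. Of the 10 hyper-DMRs 0 were in the CK list and 3 were in the SDWT list, and of the 10 hypo-DMRs 2 were in the CK list and 1 in the SDWT list. Upstream of OS10G0379233 the SDWT libraries had 60.1, 71.0 and 61.5%, below those of pOsNAR2.1-OsNAR2.1 and above those of WYJ7. Upstream of OS05G0273500 the 3 CK libraries were listed at 0, and there CK and the line were both under WYJ7. On chromosome 7 from 23311999 to 23312023 the directions differed, with 86.3, 79.6 and 88.8% in the libraries of pOsNAR2.1-OsNAR2.1, 0, 0 and 10.0% in the SDWT libraries and 25.0, 43.2 and 5.92% in the WYJ7 libraries.

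Within gene bodies the largest gain of regions with at least 5 cytosines was in the exon of OS03G0806300 given above. The largest gain in introns and the largest losses in introns and in exons were as follows. In an intron of OS11G0425300 on chromosome 11, from 13466044 to 13466085, the level was 55.0, 75.6 and 56.1% in the libraries of pOsNAR2.1-OsNAR2.1, against 7.52, 9.96 and 11.6% in the WYJ7 libraries. In an intron of OS06G0717400 on chromosome 6, from 30484608 to 30484657, all pOsNAR2.1-OsNAR2.1 libraries were listed at 0, against 33.5, 19.3 and 53.9% in the WYJ7 libraries. In an exon of OS04G0637000 on chromosome 4, from 32404108 to 32404135, all pOsNAR2.1-OsNAR2.1 libraries were listed at 0, against 60.2, 72.5 and 16.7% in the WYJ7 libraries. Both losses thus ended at a listed 0 and varied among the WYJ7 libraries.

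Contrasts of this size were also found in regions of 3 cytosines that were listed at 0 in a whole group. On chromosome 6 from 30710414 to 30710440, without annotation, the level was 80.8, 100 and 96.2% in the libraries of pOsNAR2.1-OsNAR2.1 and 0 in each WYJ7 library. The same region was in the SDWT list with 86.6, 92.4 and 88.5%, so that both T4 lines were listed near full methylation there. A further region of chromosome 6, from 17181568 to 17181578, had 74.2, 80.4 and 88.0% in the libraries of pOsNAR2.1-OsNAR2.1, 82.2, 71.7 and 67.5% in the SDWT libraries and 0 in each WYJ7 library. Upstream of OS08G0536150 on chromosome 8 the pOsNAR2.1-OsNAR2.1 libraries had 62.4, 74.6 and 67.0% and the WYJ7 libraries 0. In the opposite direction, upstream of EPlOSAG00000005476 on chromosome 2, the pOsNAR2.1-OsNAR2.1 libraries were listed at 0 and the WYJ7 libraries at 89.2, 63.2 and 63.6%. Upstream of OS01G0695900 on chromosome 1 the pOsNAR2.1-OsNAR2.1 libraries were listed at 0 and the WYJ7 libraries at 73.3, 57.0 and 73.1%.

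The annotated regions belonged to 1995 genes, of which 1219 had OS IDs and 776 had EPlOSAG IDs. Only hyper-DMRs were found at 1560 genes (78.2%) and only hypo-DMRs at 405 (20.3%). Most genes (1908, 95.6%) had 1 region, 87 had more than 1 and 4 had 3. Of the 87 genes, 55 had only hyper-DMRs, 14 had only hypo-DMRs, 16 had both and 2 had a region without direction. Of the 1995 genes, 417 were also in the CK list (20.9% of the genes of the line and 15.4% of those of CK) and 302 in the SDWT list (15.1% and 20.1%).

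The 4 genes with 3 regions had them in 1 direction each. Upstream of EPlOSAG00000045598 on chromosome 12, 3 hypo-DMRs stood within 346 bp. The first, from 20676476 to 20676559, had 50.1, 38.2 and 17.3% in the libraries of pOsNAR2.1-OsNAR2.1, against 100, 95.6 and 91.1% in the WYJ7 libraries. The second, from 20676620 to 20676679, had 0, 14.4 and 4.57% in the libraries of pOsNAR2.1-OsNAR2.1, against 60.7, 59.6 and 51.1% in the WYJ7 libraries. The third had a difference of -27.48 points, and in none of the 3 did the groups overlap. At OS05G0375400 on chromosome 5, 1 exon region and 2 upstream regions within 701 bp were hyper-DMRs. Its upstream region of 8 cytosines, from 18111443 to 18111505, had 74.3, 90.1 and 89.1% in the libraries of pOsNAR2.1-OsNAR2.1, against 52.9, 19.8 and 68.6% in the WYJ7 libraries. The groups overlapped in its other upstream region, from 18111400 to 18111418. That region had 23.9, 74.7 and 73.2% in the libraries of pOsNAR2.1-OsNAR2.1, against 0, 0 and 47.4% in the WYJ7 libraries. The other 2 genes, EPlOSAG00000016208 and EPlOSAG00000028947, had hyper-DMRs upstream, and the groups overlapped in 3 of their 6 regions.

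Opposite changes also stood side by side. Upstream of EPlOSAG00000004955 on chromosome 11 a hypo-DMR and a hyper-DMR were 92 bp apart. In the hypo-DMR, from 22638542 to 22638565, the level was 33.3, 29.6 and 31.7% in the libraries of pOsNAR2.1-OsNAR2.1, against 78.4, 81.1 and 66.6% in the WYJ7 libraries. In the hyper-DMR, from 22638658 to 22638674, it was 92.5, 97.3 and 93.8% in the libraries of pOsNAR2.1-OsNAR2.1, against 23.8, 75.9 and 73.4% in the WYJ7 libraries. The SDWT list had both regions, with 95.6, 97.7 and 98.7% in the first and 83.7, 91.9 and 82.3% in the second, so that the line and SDWT differed in direction in the first only. The 16 genes with regions in both directions had 32 regions, and the groups did not overlap in 22 of these (68.8%), against 74.7% of the whole list. Over the whole list 130 pairs of neighbouring regions were at most 1000 bp apart, of which 84 were both hyper-DMRs, 22 both hypo-DMRs and 22 opposite. Within 100 bp there were 41 pairs, of which 26 were both hyper-DMRs, 11 both hypo-DMRs and 4 opposite.

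In blocks of 1 Mb, 377 held at least 1 region, with a median of 9. The densest was on chromosome 12 from 20 to 21 Mb with 29 regions, and its direction was the reverse of that of the list, with 7 hyper-DMRs and 22 hypo-DMRs (24.1% hyper-DMRs). The next 3 blocks held 23 regions each, with hyper-DMR shares of 82.6% on chromosome 4 from 31 to 32 Mb, 78.3% on chromosome 6 from 26 to 27 Mb and 87.0% on chromosome 9 from 19 to 20 Mb, against 77.5% in the whole list. Among the 170 blocks with at least 10 regions only 3 had a hyper-DMR share under 50%, and the share in the densest was the lowest.

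Most of this block was a single stretch. From 20379956 to 20676821 on chromosome 12, over 297 kb, 20 regions followed each other and all were hypo-DMRs in CpG context, while the longest other run of hypo-DMRs in the list had 6 regions. The mean over the 20 regions was 18.3, 21.9 and 18.6% in the libraries of pOsNAR2.1-OsNAR2.1, against 48.3, 52.0 and 42.0% in the WYJ7 libraries. The groups did not overlap in 17 of the 20 regions, against 76.0% of all hypo-DMRs, and the differences lay between -60.37 and -9.16 points with a median of -26.27. The regions were rich in cytosines, since 7 of them had 10 or more and the largest had 38. That region, upstream of EPlOSAG00000009066 from 20526831 to 20527136, had 14.2, 20.3 and 20.5% in the libraries of pOsNAR2.1-OsNAR2.1, against 46.2, 48.3 and 38.8% in the WYJ7 libraries. A region of 32 cytosines without annotation, from 20518274 to 20518587, had 36.6, 48.6 and 38.6% in the libraries of pOsNAR2.1-OsNAR2.1, against 65.4, 63.4 and 56.6% in the WYJ7 libraries. The stretch held the 3 regions of EPlOSAG00000045598, 8 regions without annotation and 9 genes in all, and a gene with an OS ID, OS12G0524201, had an exon region with 9.32, 7.59 and 6.27% in the libraries of pOsNAR2.1-OsNAR2.1, against 54.2, 26.2 and 44.0% in the WYJ7 libraries.

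The CK list held 46 regions within the same limits, and all 46 were hypo-DMRs, in a list with 1466 hyper-DMRs and 3645 hypo-DMRs in all, with means of 13.3, 16.3 and 15.8% in the CK libraries, against 39.6, 46.5 and 37.1% in the WYJ7 libraries. The SDWT list held 3, also hypo-DMRs. The groups did not overlap in 41 of the 46 regions of CK, against 61.4% of the whole CK list. In SDWT they did not overlap in 1 of the 3, against 69.1% of the whole SDWT list. The lists share the WYJ7 libraries, so the same WYJ7 levels stand behind each of these counts, and regions of SDWT that were not called there have no values here. Outside the stretch, the 7 hyper-DMRs of the block had means of 58.1, 60.2 and 57.6% in the libraries of pOsNAR2.1-OsNAR2.1, against 24.3, 34.5 and 29.1% in the WYJ7 libraries. The stretch was singled out after its values had been seen.

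**Figure D5:**
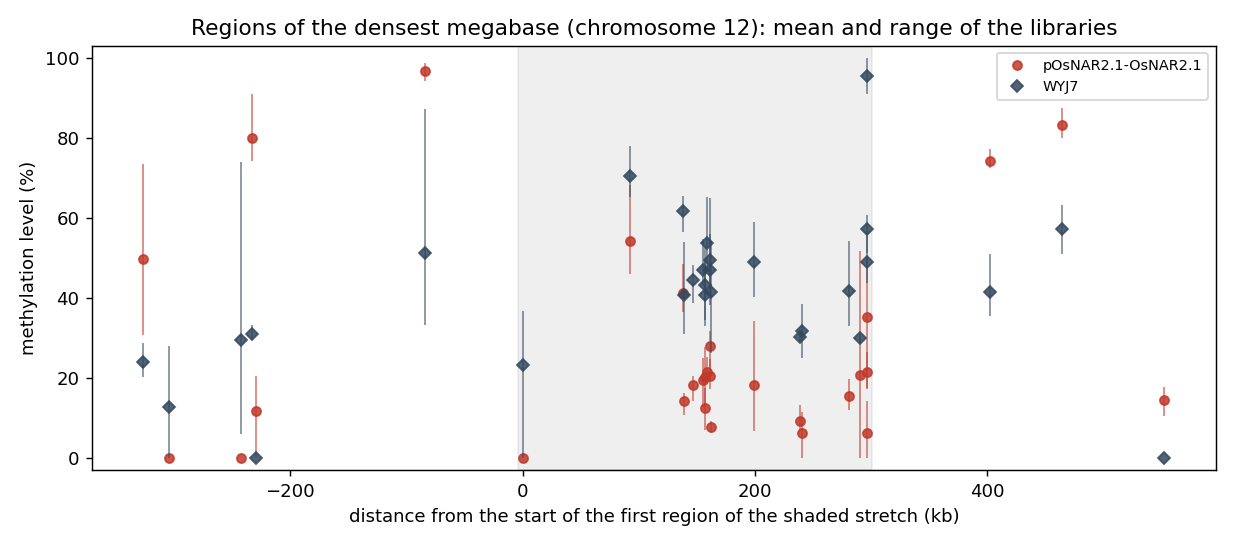
Methylation level in percent (vertical axis) of the 29 regions of the densest megabase on chromosome 12 by distance in kb from the start of its stretch of 20 hypo-DMRs (shaded). Red circles are means of the 3 pOsNAR2.1-OsNAR2.1 libraries, dark diamonds means of the 3 WYJ7 libraries, and vertical lines span the libraries of a group. In the shaded 297 kb the line is below WYJ7 in each of the 20 regions, and 7 of the 9 regions outside it are hyper-DMRs.

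A small part of the list was also called, at identical coordinates, in the other lines. It was 380 regions with CK (10.7% of the regions of the line and 7.42% of those of CK) and 276 regions with SDWT (7.80% and 10.1%). Of the 380 regions shared with CK, 164 were hyper-DMRs and 120 hypo-DMRs in both, 79 were hyper-DMRs in the line and hypo-DMRs in CK, and 15 the reverse. Of the 276 regions shared with SDWT, 155 were hyper-DMRs and 53 hypo-DMRs in both, 54 were hyper-DMRs in the line and hypo-DMRs in SDWT, and 11 the reverse. The WYJ7 levels are the same in both lists at these regions, so that a shared direction is not independent of them. The groups did not overlap in either list in 224 of the 380 regions shared with CK (58.9%) and in 163 of the 276 shared with SDWT (59.1%). Over whole lists, each taken alone, the share without overlap was 74.7% in the line, 61.4% in CK and 69.1% in SDWT, a looser condition than both lists. Among the 224 and 163 regions, opposite directions were found in 48 regions with CK, of which 43 were hyper-DMRs in the line, and in 35 with SDWT, of which 30 were hyper-DMRs in the line.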

How the data were processed

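WGBS libraries of shoots were available for 4 groups of 3, and 6 libraries entered the main comparison. According to the submitters' notes and the methods, the authors trimmed the reads, mapped them to IRGSP-1.0 with Bismark 0.9.0, kept uniquely mapped reads and left out cytosines with few reads. They then used methylKit and eDMR to call regions of each line against WYJ7. For every called region the deposited list holds its number of cytosines and, per library, a level in percent that is the mean over these cytosines, not normalized between libraries. The authors' own difference, number of changed cytosines, p-value, q-value and direction label are also listed and were not used. Read depth per region is unknown.

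Group means and their difference, SDs between libraries (n = 3) and counts were computed with Python 3.11.15, numpy 2.4.6, pandas 2.3.3 and scipy 1.17.1, and the functions were tested on simulated data. Figures were drawn with matplotlib 3.10.9. Wilson intervals are at 95%. No test was made, since the regions were chosen on the same contrast. Groups were taken as not overlapping when all libraries of one lay above or below all of the other. A column heading of the second library of the line had lost a character and was matched by construct and replicate number. Named regions were the 10 largest differences per direction with at least 5 cytosines and groups that did not overlap, the largest per feature and direction with at least 5 cytosines, the 10 genes with most regions, the 5 largest per direction with a whole group at 0, the 3 largest CpH regions per direction and the 3 densest blocks of 1 Mb; some of these are given by their counts only. Gene lists were also planned and are left out, since none of the gene IDs matched the reference table used here. Members and lists were chosen with earlier results of these data known. Alternatives left out each library, required 5 or 10 cytosines or a difference of 30 or 40 points, merged regions within 100 bp, used medians, left out the densest block or kept regions with groups that did not overlap. Leaving out regions with a listed 0 and keeping CpG regions only were added after seeing the data. MeDIP-seq samples were not analysed here.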

Additional observations from a re-analysis of the deposited data

Results flagged for a closer look

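In 11 regions with at least 5 cytosines that CK shared, and in 10 that SDWT shared, the line and the other plants stood on opposite sides of the same WYJ7 libraries, with no overlap between the groups in either list. With any number of cytosines these were 48 of the 380 regions shared with CK and 35 of the 276 shared with SDWT. Hyper-DMRs in the line were 10 of the 11 and 9 of the 10, the region on chromosome 2 below being the exception in SDWT. Over whole lists hyper-DMRs made up 77.5% in the line, 28.7% in CK and 51.8% in SDWT. The difference between the lines was not tested. Given here are the 2 regions of each list with the largest distance between the lines, picked after their values had been seen. On chromosome 12 from 4843353 to 4843379 the level was 97.1, 94.7 and 87.2% in the libraries of pOsNAR2.1-OsNAR2.1, 0, 0 and 37.6% in the CK libraries and 69.0, 62.5 and 50.8% in the WYJ7 libraries, and the line was 80.5 points above CK. On chromosome 6 from 23836527 to 23836609 it was 69.2, 84.8 and 81.3% in the libraries of pOsNAR2.1-OsNAR2.1, 0, 15.2 and 0% in the CK libraries and 44.5, 31.2 and 46.5% in the WYJ7 libraries, and the line was 73.4 points above CK. On chromosome 2 from 24634787 to 24634843 it was 0, 13.5 and 14.2% in the libraries of pOsNAR2.1-OsNAR2.1, 73.9, 88.0 and 83.0% in the SDWT libraries and 69.4, 31.1 and 43.1% in the WYJ7 libraries, a difference of the line from SDWT of -72.4 points. Upstream of EPlOSAG00000031608 on chromosome 4, from 11435025 to 11435034, it was 85.1, 78.9 and 90.4% in the libraries of pOsNAR2.1-OsNAR2.1, 33.8, 5.56 and 25.4% in the SDWT libraries and 63.0, 48.7 and 57.0% in the WYJ7 libraries, and the line was 63.2 points above SDWT.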

How the results depend on the processing

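The values describe listed regions only, and the depth behind each level is unknown. The libraries of the line had fewer uniquely mapped reads than those of WYJ7, and the results were not adjusted for this. Leaving out each library in turn gave hyper-DMR shares of 77.0 to 77.6%, median differences of 26.79 to 27.48 points in hyper-DMRs and of -29.93 to -27.76 points in hypo-DMRs, and 2750 to 2875 regions with groups that did not overlap, since fewer libraries overlap less often. No paired analysis was made, since the labels pair no library of the line with a WYJ7 library.

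With at least 5 cytosines there were 764 hyper-DMRs (median 25.40 points), 205 hypo-DMRs (-26.35 points), 833 regions with groups that did not overlap, 563 genes and 12 genes with more than 1 region, and the hyper-DMR share was 81.1% in CpG context and 89.0% in introns. With at least 10 there were 75 hyper-DMRs (24.89 points), 49 hypo-DMRs (-26.08 points) and 118 regions without overlap, and the share was 60.5% in all, 62.1% upstream, 75.0% in introns, 59.6% without annotation and 67.0% in CpG context. In exons it was 45.5% of 11 regions there, with 5 hyper-DMRs and 6 hypo-DMRs, too few to give a direction. The 7 exon regions in CpH context had a median of 11 cytosines, so some of them are among these 11. The cause of the lower share was not tested. A difference of at least 30 points left 1102 hyper-DMRs (38.25 points), 358 hypo-DMRs (-39.70 points), 1346 regions without overlap, 843 genes and 14 genes with more than 1 region, with shares of 75.5% in all, 72.8% without annotation and 76.4% in CpG context. At 40 points there were 489 hyper-DMRs (47.59 points), 176 hypo-DMRs (-46.96 points) and 639 regions without overlap, with shares of 73.5% in all, 75.3% upstream, 66.7% in exons, 70.6% without annotation, 74.1% in CpG and 25.0% in CpH context. These counts are smaller because fewer regions enter.

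Only regions without overlap had medians of 29.93 points in hyper-DMRs and -31.51 points in hypo-DMRs, and 47 genes with more than 1 region. Without regions holding a 0 there were 1808 hyper-DMRs, 429 hypo-DMRs, 1277 genes and 44 genes with more than 1 region, with shares of 80.8% in all, 81.6% upstream, 79.5% without annotation and 81.6% in CpG context, and of 99.6, 96.0, 89.3 and 80.8% from the lowest to the fourth class of WYJ7 level. Leaving out regions with a 0 also removes losses that ended at 0, which raises these shares by class. With the median of the libraries in place of the mean, hyper-DMRs differed by 27.78 points. Merging neighbouring regions moved no share of the whole list, a feature or a context beyond its Wilson interval, nor did leaving out the densest block, but without the block the share on chromosome 12 was 76.6%, against 69.7% with it. CpG regions only moved no share by WYJ7 level beyond its interval.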
